A study of Mus musculus with 7 samples.

Results

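Intergenic peaks were 702 of the 6395 ATAC-seq peaks in the authors' deposited table (11.0%, Wilson 95% interval 10.2% to 11.8%, counting error only). They were chosen by 1 rule, that the section the authors gave the peak reads Intergenic. Such a peak has no gene assigned to it. ATAC-seq reads out open chromatin, since a transposase inserts adapters where DNA is not wrapped tightly. The cells were splenic T follicular helper (Tfh) cells, sorted as CD4+CD44+GITR-PSGL-1loCXCR5hiPD-1hi. All donors were B6/Sle1.Yaa mice, a lupus-prone strain, at 5 months of age. For 4 weeks, 2 times a week, they received an antibody against IFNAR1 (4 samples; the sample labels spell the target IFNA1) or anti-rat IgG as the control (3 samples). The labels do not say whether a sample came from 1 mouse or from pooled mice.

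Every row of the table is a region where coverage on the anti-IFNAR1 side exceeded a background taken from the control IgG side. The peak names state that direction. No column belongs to a single sample, so the spread between mice cannot be had and none of the differences below is tested across mice. Peaks are not replicates of a treatment, and differences between classes of peaks are given as counts, medians and ranges only. Pileup is the number of fragments that overlap at the summit, scaled by the peak caller, and fold enrichment is that coverage over the local background, each with 1 added. All pileups were whole multiples of 0.283, which gave back the fragments. The factor corresponds to 3.54 times more fragments on the anti-IFNAR1 side than on the control side. In the whole list, 23 of 34 Tfh genes and 12 of 16 CD4 T cell identity genes had a peak assigned. So had 0 of 16 B cell, 3 of 20 myeloid and 0 of 12 CD8 T and NK cell markers. Cxcr5, Icos, Il21, Il4 and Cd40lg were among the Tfh genes without an assigned peak. These gene lists were made with earlier results of the data known, and the rows are regions higher on the anti-IFNAR1 side. The counts therefore describe the list and do not test cell identity.

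Open regions between genes include enhancers, which act on promoters at a distance, insulators bound by CTCF, and starts of transcripts that a given annotation does not hold. Enhancers are more cell type-specific than promoters, and in T cells many signal-dependent factors such as AP-1, NF-kB and STAT proteins bind them. Type I interferon signals through IFNAR1 to JAK kinases and STAT proteins. Transfer RNA genes, transcribed by RNA polymerase III, form a separate kind of open site, with promoter elements inside the gene (the A box and the B box).

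The reference sequence was at hand only where a member overlapped the window from 250 bases before to 50 bases after a RefSeq gene start (GRCm38.p6, the same build as mm10). There were 38 such members (5.41%), 11 at protein-coding genes and 27 at long noncoding RNA (lncRNA) genes only, and in 20 the summit lay in the window. The 7 windows below show the range of these sites. They were picked after the values were seen: the single window under one of the 10 peaks of smallest q (Gm41309), a CpG-rich start with repeated SP/KLF letters (Smim15), a CpG-rich start with a CRE (Clasp2), a start with an ETS match (Zfp33b), an lncRNA start with an NRF1 match (Gm38882), a CpG-poor lncRNA start with no match (Gm40093) and a window that holds a tRNA gene (Gm46404). Each runs 5′ to 3′ on the strand of its gene in lower case. Capitals mark matches on either strand to the motifs searched, which are spelled out after the sequences except for CTCF and the tRNA B box, given by name, and motifs may overlap.
Gm41309: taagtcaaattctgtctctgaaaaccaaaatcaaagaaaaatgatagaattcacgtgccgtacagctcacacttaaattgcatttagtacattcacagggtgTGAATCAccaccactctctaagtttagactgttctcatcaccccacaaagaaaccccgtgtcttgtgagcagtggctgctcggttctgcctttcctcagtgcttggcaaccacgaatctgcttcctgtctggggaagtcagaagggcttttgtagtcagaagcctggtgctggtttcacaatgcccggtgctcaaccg
Smim15: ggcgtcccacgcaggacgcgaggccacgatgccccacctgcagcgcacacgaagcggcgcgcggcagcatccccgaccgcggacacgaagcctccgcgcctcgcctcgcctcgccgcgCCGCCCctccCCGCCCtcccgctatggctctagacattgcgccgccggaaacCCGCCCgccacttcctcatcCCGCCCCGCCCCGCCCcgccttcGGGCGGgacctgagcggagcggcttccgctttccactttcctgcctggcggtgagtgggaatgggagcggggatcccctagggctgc
Clasp2: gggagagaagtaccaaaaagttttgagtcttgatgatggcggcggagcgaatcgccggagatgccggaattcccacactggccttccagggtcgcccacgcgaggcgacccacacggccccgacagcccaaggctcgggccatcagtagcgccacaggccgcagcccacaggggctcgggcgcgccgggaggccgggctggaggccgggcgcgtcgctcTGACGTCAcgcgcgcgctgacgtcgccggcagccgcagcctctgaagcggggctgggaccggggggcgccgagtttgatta
Zfp33b: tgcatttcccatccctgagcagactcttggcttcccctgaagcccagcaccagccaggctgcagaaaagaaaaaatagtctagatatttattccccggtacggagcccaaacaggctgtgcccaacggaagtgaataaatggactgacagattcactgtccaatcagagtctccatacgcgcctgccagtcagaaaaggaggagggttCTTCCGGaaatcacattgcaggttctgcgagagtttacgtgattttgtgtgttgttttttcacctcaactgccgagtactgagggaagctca
Gm38882: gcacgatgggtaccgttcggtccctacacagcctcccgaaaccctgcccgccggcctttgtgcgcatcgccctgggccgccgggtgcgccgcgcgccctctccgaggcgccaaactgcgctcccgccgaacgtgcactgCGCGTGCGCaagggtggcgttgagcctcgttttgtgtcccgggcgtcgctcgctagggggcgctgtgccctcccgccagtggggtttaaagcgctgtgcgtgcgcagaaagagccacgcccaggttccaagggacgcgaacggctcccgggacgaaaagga
Gm40093: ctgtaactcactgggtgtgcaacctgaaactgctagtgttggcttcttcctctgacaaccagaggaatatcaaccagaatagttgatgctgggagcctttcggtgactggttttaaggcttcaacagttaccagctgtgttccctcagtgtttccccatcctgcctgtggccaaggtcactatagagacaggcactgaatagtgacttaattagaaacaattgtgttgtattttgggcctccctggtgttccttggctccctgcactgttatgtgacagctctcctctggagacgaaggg
Gm46404: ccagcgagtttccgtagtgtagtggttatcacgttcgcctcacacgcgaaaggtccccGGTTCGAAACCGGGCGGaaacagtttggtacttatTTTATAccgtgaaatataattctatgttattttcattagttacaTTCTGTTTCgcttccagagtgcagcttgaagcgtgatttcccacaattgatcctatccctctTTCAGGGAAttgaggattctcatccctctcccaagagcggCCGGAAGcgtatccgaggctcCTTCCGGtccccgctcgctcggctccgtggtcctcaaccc

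The windows lie at chr15:38602237-38602536 (minus strand, Gm41309), chr13:108044224-108044523 (plus, Smim15), chr9:113741223-113741522 (plus, Clasp2), chr5:104571422-104571721 (plus, Zfp33b), chr6:117879383-117879682 (plus, Gm38882), chr3:93597455-93597754 (minus, Gm40093) and chr13:23445922-23446221 (minus, Gm46404). Smim15 and Clasp2 hold 41 and 37 CpG dinucleotides in 300 bases. Zfp33b holds 9, Gm41309 holds 7 and Gm40093 holds 2. CpG-rich and CpG-poor starts were thus both among them. Clasp2 encodes a protein that binds the growing ends of microtubules.

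The peaks over these 7 windows differed in coverage and fold. The peak over Gm41309 had 42 anti-IFNAR1 fragments, a background at the genome rate and a fold of 11.4, the highest of the 7. The peak over Gm40093, the CpG-poorest, had 29 fragments and a fold of 6.25, and that over Smim15 had 38 fragments and a fold of 5.87. Gm38882 had 84 fragments, the most of the 7, against a background of 5.67 and so a fold of 3.71. The folds at Zfp33b, Gm46404 and Clasp2 were 3.91, 3.50 and 3.25. At Smim15, Gm40093, Gm38882 and Clasp2 the summit lay within 26 bases of the annotated start. At Gm41309 the summit lay 229 bases past the start, outside the printed window.

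For counts, 1 window was taken for each of the 38 members, the one with the largest overlap (the first of them where overlaps were equal, which for the Smim15 peak is a window of the lncRNA gene Gm41055). The median number of CpGs in them was 10.5 (1 to 40). This lies between 7 for all 32851 windows of the table and 24 for the 4122 windows under peaks of the TSS section. At least 10 CpGs were present in 20 member windows (52.6%), in 43.5% of all windows and in 93.6% of those under TSS peaks. The GC-box letters GGGCGG, read by SP and KLF factors, occurred in 20 of 38 (52.6%, against 35.7% of all windows). AP-1 letters TGANTCA occurred in 6 (15.8% against 7.81%), ETS letters CCGGAAG in 4 (10.5% against 8.86%) and NF-Y letters GCCAAT in 5 (13.2% against 14.7%). The IRF letters GAAANNGAA were in 3 (7.89% against 8.56%) and the STAT letters TTCNNNGAA in 2 (5.26% against 8.30%). The core motif of CTCF matched 2 (5.26% against 0.557%). Of the others, TATAAA matched 5 windows, GCGCANGCG (NRF1) 3, CTTTGAA (TCF-1 and LEF1) 3, TGTGGTT (RUNX) 2, TGACGTCA (CRE) 1, the B box of tRNA genes 1 (2.63% against 0.122%) and AAGATGGCG (YY1) 0. With 38 windows each count is small, and a match is a description of letters only.

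Intergenic peaks were mostly far from protein-coding gene starts, but most were not in gene deserts. The median distance from summit to the nearest protein-coding gene start was 22.0 kb (quartiles 8.50 and 57.8 kb). It was 0.251 kb for the 4632 peaks of the TSS section and 23.9 kb for the 448 intronic peaks. Intergenic and intronic peaks therefore lay at like distances from protein-coding gene starts, although the rule placed them on different sides of a gene border. For 108 of the 702 members (15.4%) the strand of the nearest gene was not given and the nearer end was used, so the distance is a lower bound. In all, 308 members (43.9%) lay 10 to 50 kb from the nearest start, 102 (14.5%) at 50 to 100 kb and 98 (14.0%) beyond 100 kb. Another 121 (17.2%) lay at 2.5 to 10 kb and 73 (10.4%) closer than 2.5 kb. The members were split evenly around genes, with 292 downstream of the nearest protein-coding gene and 279 upstream.

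**Figure D1:**
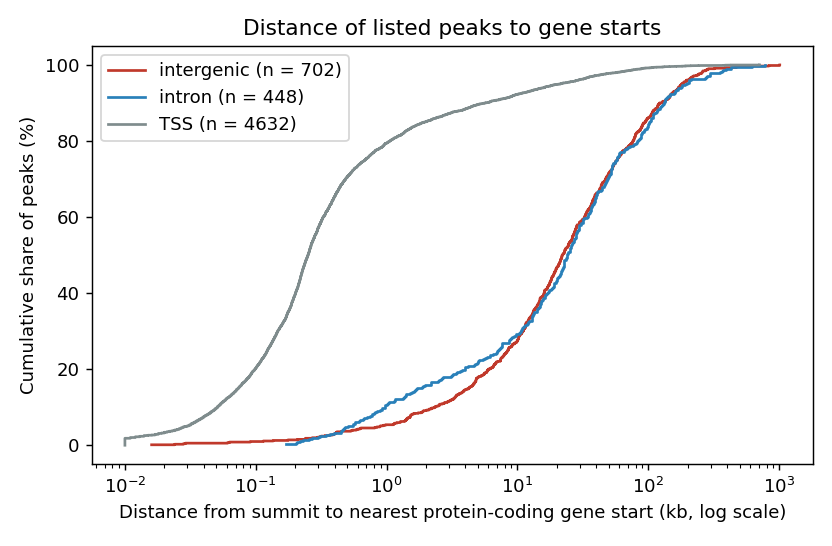
Cumulative share of peaks (%) by distance from the summit to the nearest protein-coding gene start (kb, log scale), for intergenic, intronic and TSS peaks. The intergenic and intronic curves run together, with medians of 22.0 and 23.9 kb, while the median of TSS peaks is 0.251 kb; distances under 0.01 kb are drawn at 0.01 kb.

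The RefSeq annotation placed a gene under some summits that the authors' annotation left between genes. The summit fell inside no RefSeq gene for 512 members (72.9%), inside an lncRNA gene for 126 (17.9%), a protein-coding gene for 49 (6.98%), a tRNA gene for 9 (1.28%) and a pseudogene or other gene for 6. Measured to the start of any RefSeq gene, the median distance was 7.10 kb, against 0.284 kb for all other peaks and 10.7 kb for intronic peaks. Within 1 kb of such a start lay 140 members (19.9%), against 73.5% of all other peaks and 15.0% of intronic peaks. The 126 members inside lncRNA genes had a median of 33 fragments and a fold of 4.68. The 512 outside every gene had 28 fragments and a fold of 4.70.

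A group of members lay beside tRNA genes. The summit lay within 1 kb of a RefSeq tRNA gene for 37 members (5.27%), against 34 of the 5693 other listed peaks (0.597%). Of all 71 listed peaks beside a tRNA gene, 52.1% were thus intergenic, and 28 of the 34 others were in the TSS section. Only 1 row of the list carries the name of a RefSeq tRNA gene, and the part of the authors' annotation in this difference was not tested. Within 1 kb of a microRNA, snRNA or snoRNA gene there were 0 members, and 63, 27 and 20 of the other peaks. Gene names starting with Mir, Snor or Rnu stood on 30 rows of the list. A peak assigned to such a gene is not intergenic by the rule. The counts of 0 can thus follow from the rule alone, and this was not tested. Of the 37 summits, 31 lay less than 300 bp from the tRNA gene, and 28 had at least 2 tRNA genes within 5 kb. In the other direction, 71 of 430 tRNA genes (16.5%) had an intergenic peak within 1 kb.

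**Figure D2:**
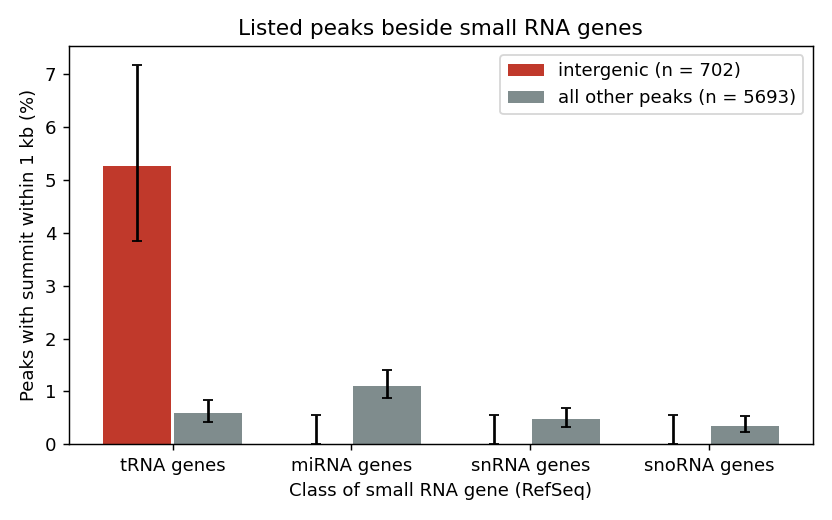
Share of intergenic peaks (n = 702) and of all other listed peaks (n = 5693) with the summit within 1 kb of a RefSeq gene of each small RNA class (%), with Wilson 95% intervals for counting error. The tRNA bar is 5.27% for intergenic and 0.597% for other peaks. The other 3 classes stand at 0 for intergenic peaks, which can follow from the rule that defines them.

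Peaks beside tRNA genes had higher median length and coverage than the remaining members. Their median length was 693 bp against 469 bp for the other 665 members, and their median was 46 anti-IFNAR1 fragments (15 to 78) against 29. The control background was higher too, at a median of 2.00 against 0.661 fragments, and the median fold was 4.95 (3.09 to 8.83) against 4.70. The highest fold, 8.83, was beside n-TLcag5 (a leucine tRNA with anticodon CAG) at chr8:94702602-94703555, with 38 fragments over a background of 0.330. At chr11:69036928-69063558, around Ctc1, Aurkb and Borcs6, 3 intergenic peaks sat on or beside n-TIaat5, n-TGtcc6 and n-TTagt7, with folds of 7.45, 7.85 and 4.66. Aurkb encodes the mitotic kinase Aurora B. On chromosome 13, which carried 8 of the 37, peaks lay among tRNA genes and histone genes, including one 5.11 kb from H2bc13 with a fold of 5.00. The window printed for Gm46404 holds the valine tRNA gene n-TVcac9 (chr13:23446142-23446214) at its bases 8 to 80, and the B box match lies in it.

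Intergenic peaks had lower median coverage and length than promoter peaks, at nearly the same median fold. Their median pileup was 8.48 in the authors' scaling, which is 30 fragments (11 to 135), against 43 for all other peaks, 46 for TSS peaks and 28 for intronic peaks. Median length was 472.5 bp (quartiles 363.25 and 689.5), against 547 bp for all other peaks and 574.5 bp for TSS peaks. The control background had a median of 0.708 fragments against 1.65 for all other peaks. The median fold was 4.71 (quartiles 4.07 and 5.75) against 4.74 for all other peaks, 4.76 for TSS and 4.62 for intronic peaks. Both the median coverage and its median background were thus lower between genes. The median fold, which adds 1 to each of them, was close to that of other peaks. The ratio without the added 1 was not compared.

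**Figure D3:**
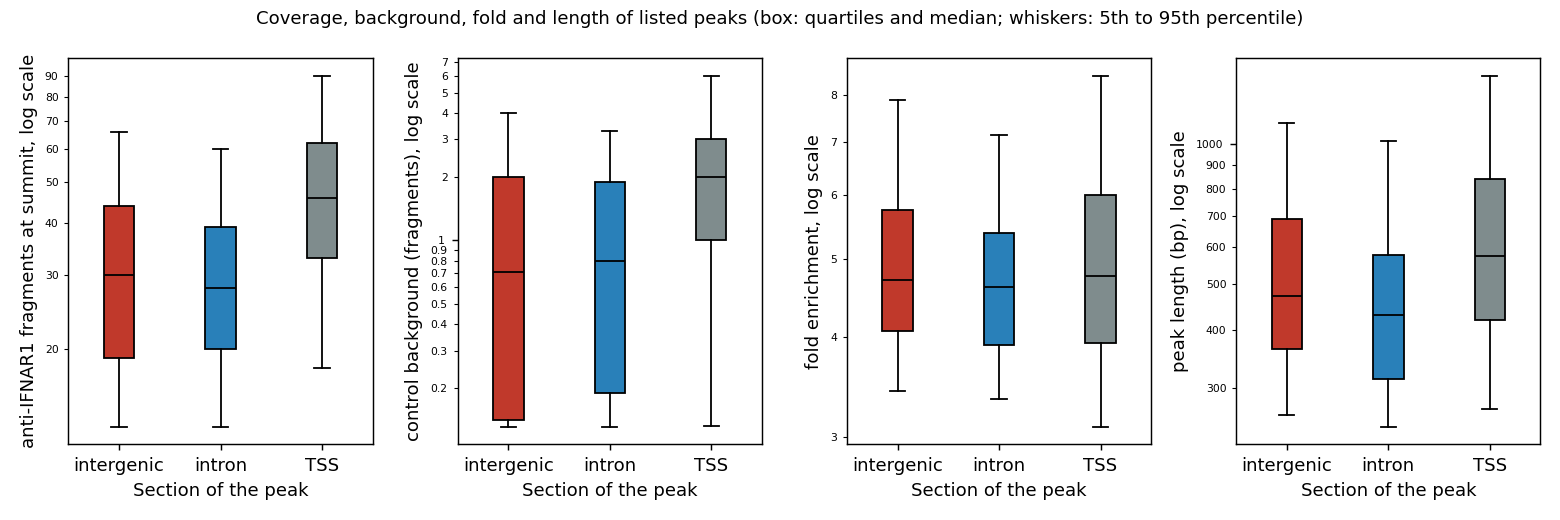
Anti-IFNAR1 fragments at the summit, control background in fragments, fold enrichment and peak length in bp (log scales) for intergenic (n = 702), intronic (n = 448) and TSS (n = 4632) peaks; boxes give quartiles and median, whiskers the 5th to 95th percentile. Intergenic and intronic boxes sit below the TSS box for fragments (medians 30, 28 and 46), while the fold boxes overlap (medians 4.71, 4.62 and 4.76).

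At like coverage the medians were set side by side for intergenic and TSS peaks. Among peaks with fewer than 20 fragments, the median length was 371 and 404 bp and the median fold 4.38 and 4.84. Among peaks with 30 to 39 fragments, the fold was 4.74 and 5.02, and among those with 60 or more it was 4.46 and 4.56. In each of these ranges the TSS peaks had the higher median fold. Among peaks with 40 to 59 fragments, the median length was 588 bp for 158 intergenic peaks and 596 bp for 1601 TSS peaks, and the median fold was 4.66 and 4.57. Among peaks with 20 to 29 fragments, it was 481 and 495.5 bp, with folds of 5.60 and 5.48. The classes differed in how many peaks fell in each range: 180 intergenic peaks (25.6%) had fewer than 20 fragments, against 8.69% of all other peaks, and 62 (8.83%) had 60 or more, against 24.0%.

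Few control fragments stood behind most of these folds. The background was below 1 fragment for 380 members (54.1%), against 28.8% of all other peaks and 52.7% of intronic peaks, and for 162 (23.1%, against 8.47%, and 18.8% of intronic peaks) the caller had fallen back on the genome-wide rate of about 0.132 fragments. At that rate the fold is fixed by the anti-IFNAR1 fragments alone. Of the members, 530 (75.5%) had a q-value of at most 0.01 in the authors' deposited table, against 82.4% of the whole list. At q of at most 0.001 there were 391 (55.7%), against 62.6% of the list, and 28 members (3.99%) reached a pileup of 20, against 12.5% of the list. The caller treats the background as known, so a one-sided exact conditional binomial test of the fragments at the summit, which counts noise on both sides, was set beside it. It compares the coverage of the 2 sides, not the treatments. It kept 77 members (11.0%) at the largest p of the list, 6.90e-05, against 20.9% of the whole list, 22.1% of all other peaks and 6.25% of intronic peaks. With 0 control fragments a peak needs 39 anti-IFNAR1 fragments to pass, and 467 members (66.5%) had fewer, against 41.9% of all other peaks and 74.6% of intronic peaks. In background, exact test and fragment shares the members were closer to the intronic peaks than to the list as a whole. At the q limits they were closer to the list, since 67.4% of intronic peaks passed 0.01 and 46.2% passed 0.001. Among the 235 members with enough fragments 32.8% were kept, and among other peaks with enough 38.1%.

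Members far from genes had lower median coverage. The median was 35 fragments for members under 2.5 kb from a protein-coding start and 35 at 2.5 to 10 kb. It was 27 at 10 to 50 kb, 29 at 50 to 100 kb and 24.5 beyond 100 kb. The share at the genome rate was 12.4% at 2.5 to 10 kb and 39.8% beyond 100 kb, while the median fold stayed between 4.63 and 4.93 in the 5 ranges. The exact test kept 22 of 121 members at 2.5 to 10 kb (18.2%) and 6 of 98 beyond 100 kb (6.12%). The farthest members from any gene included chr4:89875821-89876560, 181 kb from Dmrta1, with 22 fragments and a fold of 6.38, and chr6:49973593-49974277, 115 kb from the nearest gene, with 30 fragments and a fold of 8.38. Both had the genome rate as background.

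The intergenic share of the list differed between chromosomes. It was lowest on chromosome 5 (26 of 396, 6.57%, Wilson interval 4.52% to 9.45%) and on X (10 of 152, 6.58%). The highest was on chromosome 15 (43 of 254, 16.9%, interval 12.8% to 22.0%), and chromosomes 12 and 14 followed at 15.9% and 15.7%. The Y chromosome carried 1 listed peak, which was not intergenic.

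**Figure D4:**
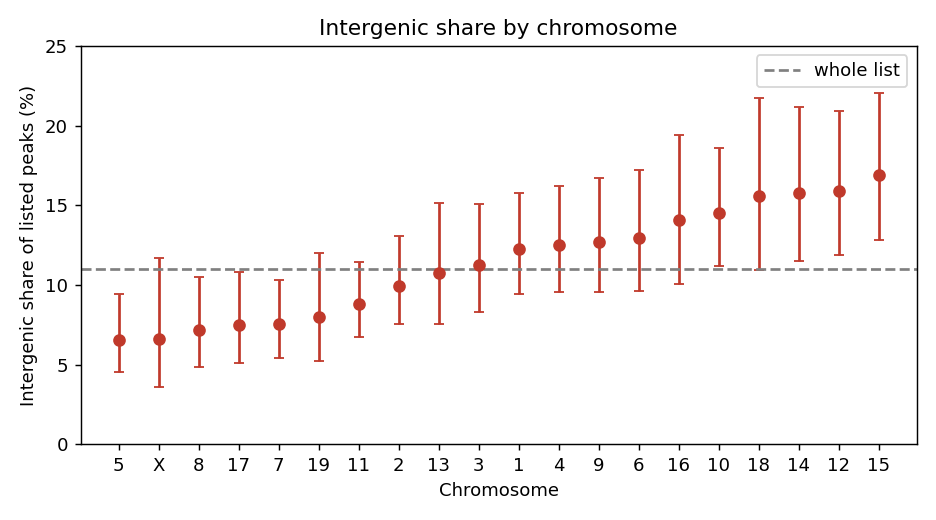
Intergenic share of the listed peaks on each chromosome (%), ordered by that share, with Wilson 95% intervals for counting error; the dashed line is the share in the whole list. Points run from 6.57% on chromosome 5 to 16.9% on chromosome 15, with 11.0% for the whole list; Y, with 1 listed peak, is left out.

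Many intergenic peaks came in groups. Chained within 50 kb, 186 members (26.5%) formed 79 clusters, of which 57 held 2 peaks, 18 held 3, 2 held 4 and 2 held 5. The other 516 stood alone. Clustered members had more fragments (median 35 against 27) over a higher background (1.00 against 0.472), with a fold of 4.63 against 4.73. Any listed peak lay within 50 kb of 57.1% of the members and of 51.6% of the other peaks, and a TSS peak lay within 50 kb of 271 members (38.6%) and of 40.4% of the intronic peaks.

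The largest clusters held 5 peaks each. On chromosome 1, chr1:86440967-86504579 held 2 peaks 13.8 and 14.4 kb downstream of Tex44 and 3 peaks 22.4 to 39.0 kb upstream of Ptma, which encodes the chromatin-associated protein prothymosin alpha. From the first to the last, the 5 peaks had 47, 45, 56, 38 and 56 fragments and folds of 3.97, 4.08, 3.91, 5.87 and 7.72. The peak nearest to Ptma had the highest fold and was the only one of the 5 kept by the exact test. The other cluster of 5, at chr18:35888148-35942772 between Cxxc5 and Psd2, had folds of 3.50 to 6.19 and 27 to 70 fragments. A cluster of 4 at chr6:47650836-47668546, among the predicted genes Gm40369, Gm40367 and Gm40365, had 57, 75, 31 and 36 fragments and folds of 4.28, 4.44, 7.61 and 3.73. Its peak of fewest fragments had the highest fold, over a background of 0.283. The clusters of 3 named next were picked after their values were seen. At chr14:54225417-54234091, downstream of Dad1 on the side of the T cell receptor alpha locus, 3 peaks had 50 to 84 fragments and folds of 3.54 to 4.21. Beside Klrb1c, which encodes the NK cell receptor NK1.1, 3 peaks had folds of 4.46 to 6.02, although none of the 12 CD8 T and NK cell markers had an assigned peak.

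Single peaks of smallest q stood at genes of many roles. The smallest, 8.95e-24, belonged to chr2:34802038-34803094, 1.95 kb downstream of Fbxw2, an F-box gene of the ubiquitin system. It had 67 anti-IFNAR1 fragments and 0 at the control site, and its fold of 16.1 was the highest of all members. The next were chr15:36395785-36397049 (54 fragments, fold 13.2), 81.1 kb from Ankrd46, and chr11:95258616-95259825 (48 fragments, fold 12.8), 2.30 kb upstream of Tac4 and inside the lncRNA gene Gm11515. Both had 0 control fragments at the site. Upstream of Ccdc9, chr7:16294533-16295568 had 95 fragments over a background of 1.65 from a wider window (fold 10.5). The peak chr15:97468911-97470052, 83.8 kb downstream of Pced1b, had 77 against 1 at the control site (fold 11.4).

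The other 5 of the 10 smallest q lay near Atp6v1c1 (in Gm41309, whose window is printed above), Ccnl1, Hnrnpu, Cd47 and Znrf4. The first 4 of these had 39 to 42 fragments at the genome rate and folds of 10.6 to 11.4. The exact test kept all 10. Ccnl1 encodes cyclin L1 and Hnrnpu an RNA-binding protein of the nuclear matrix, both tied to RNA processing. Cd47 encodes the surface signal that keeps macrophages from engulfing a cell, and its peak, chr16:50030504-50030790, was 118 kb downstream.

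Of the 5 members with the highest pileup, 4 had folds below the members' median of 4.71. The 28 members with a pileup of at least 20 had a median fold of 5.20, and among them were the peaks near Ccdc9, Pced1b and Znrf4 (folds 10.5, 11.4 and 8.37). The highest pileups were chr11:3123774-3124196 (135 fragments, fold 3.01), over the pseudogene Pisd-ps1 near Sfi1, and chr11:109011707-109012035 (129 fragments, fold 3.12), in the lncRNA gene Gm36876. Their control sites had 12 and 11 fragments, among the highest backgrounds of the members. Next came chr19:61266501-61267037 near Csf2ra, with 108 fragments and a fold of 2.77. Whether reads from near-identical copies share these 3 sites was not tested. At chr11:87748610-87749574, 5.67 kb downstream of Supt4a, 106 fragments against 5 gave a fold of 5.16. The longest members were chr3:96499613-96501503 (1890 bp, fold 5.75), 260 bp from the histidine tRNA gene n-THgtg8, and chr4:63408922-63410761 (1839 bp, 97 fragments, fold 4.74). The latter lay within the RefSeq gene Akna, 0.533 kb from its start.

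The series title names Il21 and Ifng, the genes of the cytokines IL-21 and interferon gamma. No member lay within 100 kb of the start of Il21. A listed peak of the TSS section, assigned to Gm43822, lay 0.239 kb from that start, with 35 fragments and a fold of 3.63. The 1 member near Ifng, chr10:118419114-118419355, was 21.9 kb upstream of its start. It had 35 anti-IFNAR1 fragments against 2 control fragments, a fold of 3.63 and a q-value of 0.0352 in the authors' deposited table. The exact test did not keep it (unadjusted exact p = 0.00646), and its fragment ratio of 4.95 had an exact 95% interval of 1.27 to 42.5. Another listed peak, in intron 1 of Ifng, lay 1.13 kb from the start. That peak had 18 fragments, a fold of 4.74 and a q-value of 0.000884 in the authors' deposited table.

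Members lay near many genes of the T cell lists. Of 34 Tfh genes, 15 (44.1%) had a member within 100 kb of their start, as had 11 of 22 naive and quiescence genes and 9 of 27 AP-1, BATF and NF-kB genes (33.3%). The share was 8.32% over all 21900 protein-coding genes, which include genes closed in T cells. It was 18.8% for housekeeping genes (3 of 16), 18.8% for B cell markers (3 of 16), 12.5% for interferon-stimulated genes (6 of 48) and 6.25% for CD4 identity genes (1 of 16). The other lists had 5 of 34 cytokine receptor and JAK-STAT genes, 5 of 20 helper cytokine genes, 5 of 25 costimulatory and inhibitory receptor genes, 6 of 33 lineage transcription factor genes, 1 of 20 myeloid and 1 of 12 CD8 T and NK cell markers. Other listed peaks lay within 100 kb of 88.2% of the Tfh genes and 57.2% of all protein-coding genes. Counted by peaks, 60 members (8.55%) and 6.41% of all other peaks lay near one of the 190 genes of the T cell lists. For genes whose strand was not given, such as Cxcr5 and Ikzf3, the nearer end stood for the start. The lists were made with earlier results of these data known, so these shares describe and support nothing further.

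Among Tfh genes, Tnfsf8, which encodes the CD30 ligand, had 3 members upstream of its start. They lay at 1.45, 37.4 and 86.3 kb (the last nearer to Tnc), with 43, 45 and 22 fragments and folds of 5.45, 8.03 and 4.90. The middle one, chr4:63898487-63899253, was the only one of the 3 that the exact test kept. The TSS peaks of Tnfsf8 had folds of 8.55 and 3.83. Cxcr4, a chemokine receptor that places cells in the dark zone of germinal centres, had members 22.9 kb upstream (70 fragments, fold 4.16), 43.4 kb downstream (31 fragments, fold 4.88) and 195 kb upstream (50 fragments, fold 4.50). Cxcr5, the receptor that draws Tfh cells into B cell follicles, had members 1.13 kb (fold 4.88) and 55.4 kb (fold 8.30) away, each with 30 fragments. Both were nearer to other genes, Bcl9l and Ddx6. The strand of Cxcr5 was not given, so each distance runs to the end nearer to that peak and is a lower bound for its start.

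The repressor gene Bcl6, which sets the Tfh program, had a member 90.1 kb downstream of its start, nearer to Sst, with 17 fragments and a fold of 4.70, and one 163 kb upstream with 45 fragments and a fold of 5.17. Near Egr2, a factor induced by T cell receptor signals, a member 51.9 kb away, nearer to Ado, had 41 fragments and a fold of 10.2, the highest in the neighbourhood of a Tfh gene. Tox2 and Ikzf3 had members with folds of 7.37 and 7.54, at 82.2 and 6.44 kb, nearer to Gtsf1l and Mien1. The strand of Ikzf3 was not given, so 6.44 kb runs to its nearer end and is a lower bound for its start. Pdcd1, which encodes PD-1, had one 16.8 kb away with 50 fragments and a fold of 3.02, over a background of 4.01. Lef1 had one 90.7 kb upstream with 43 fragments and a fold of 4.39.

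Bach2, a repressor that restrains effector differentiation, had 4 members for which it was the nearest gene. Upstream of its start they lay at 73.7, 58.5 and 21.0 kb, with 20, 27 and 19 fragments and folds of 5.38, 7.63 and 5.58. The fourth, 2.29 kb beyond its end, had 25 fragments and a fold of 7.13. All 4 had 0 control fragments at the site and none reached the count that the exact test needs. Its TSS peak had a fold of 6.07. Of the NF-kB genes, Relb had a member 39.8 kb away, nearer to Gm44805, with a fold of 7.83 (32 fragments). Nfkbid had 2, at 27.2 and 29.3 kb and nearer to Tyrobp, with folds of 5.72 and 6.28. Nfkbia, an inhibitor of NF-kB, had one 23.8 kb beyond its end with 31 fragments and a fold of 4.90. Near the AP-1 genes Junb and Fos, members at 7.09 kb (nearer to Hook2) and 12.5 kb had 79 and 29 fragments and folds of 4.67 and 3.81.

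Members near Dusp1, Klf6 and Id2 had 35 to 57 fragments. Downstream of Dusp1, which encodes a phosphatase that switches off MAP kinases, chr17:26503064-26503535 had 57 fragments and a fold of 8.70, against 3.94 at its TSS peak. Upstream of Klf6, chr13:5845258-5845797 had 49 fragments and a fold of 6.81, against 3.10 at its TSS peak. Id2, an inhibitor of E proteins, was flanked by a member 3.42 kb downstream (35 fragments, fold 7.40) and one 2.45 kb upstream (36 fragments, fold 5.59), with 3.44 at its TSS peak. In these 3 genes the intergenic fold exceeded the fold at the start, and at Dusp1 and Klf6 the exact test kept the peak. The TSS peaks of Dusp1, Klf6 and Id2 had 80, 67 and 33 fragments, so at Dusp1 and Klf6 the start had more coverage. At Tnfsf8 and Bcl6 the highest TSS fold, 8.55 and 6.04, was instead above the folds of their members. S1pr1 and Ccr7, receptors for leaving and entering lymphoid tissue, had members with 37 fragments and a fold of 5.73 at 43.7 kb and with 19 fragments and a fold of 5.36 at 15.9 kb upstream.

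Of the JAK kinase genes, Jak2 had a member 14.7 kb upstream (25 fragments, fold 7.07). Tyk2, which encodes the kinase bound to IFNAR1, had one 4.61 kb away (27 fragments, fold 4.79), nearer to Cdc37. Fasl, which encodes the death ligand FasL, had 3 members 21.5, 37.0 and 53.7 kb downstream of its start with 48, 21 and 22 fragments and folds of 6.03, 6.13 and 4.90. No other listed peak lay between them.

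**Figure D5:**
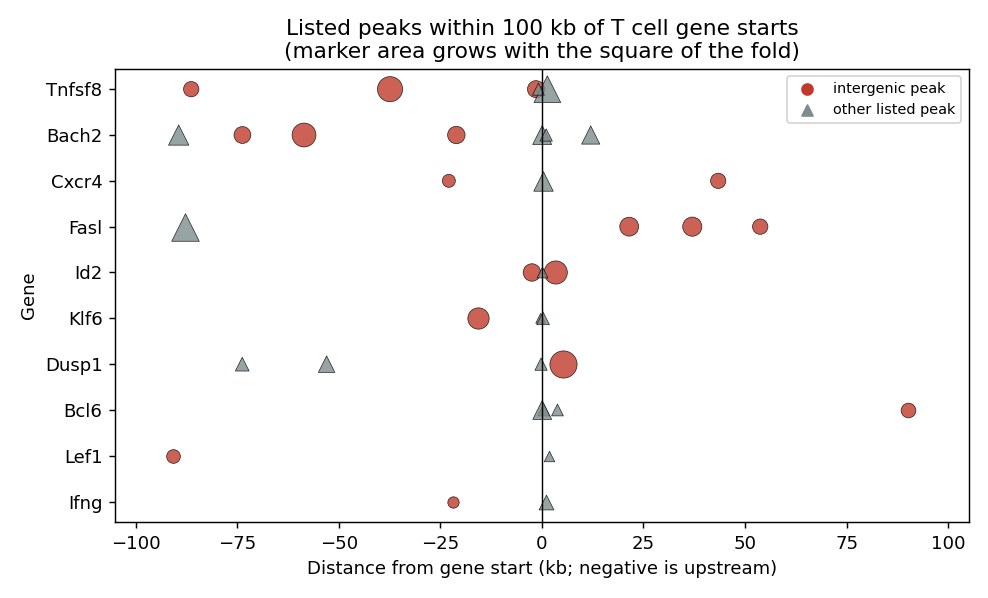
Position of listed peaks within 100 kb of the start of 10 T cell genes (kb from the start, negative is upstream); circles are intergenic peaks, triangles all other listed peaks, and the marker area grows with the square of the fold. Bach2 has 3 intergenic peaks upstream within this range and Fasl 3 downstream, while Ifng has 1, at 21.9 kb upstream.

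A peak between genes and the peak at the start of its nearest gene were not alike in size. The nearest gene had a TSS peak for 246 members (35.0%), which made 200 genes. Where a gene had several, the member and the TSS peak of smallest q were taken, so the pairs were picked by their own values. Over these genes the median fold was 4.73 between genes and 4.54 at the start, and the intergenic fold was higher in 113 of 200. Fragments were higher between genes in 52 of 200, with medians of 32 and 50.5. Across the 200 genes, which share libraries and depth and are not independent replicates, Spearman's rho was 0.0396 for the fold and 0.117 for the fragments. The nearest gene is a matter of distance only, and which gene a region acts on is not measured here.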

How the data were processed

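ATAC-seq was measured in 4 anti-IFNAR1 and 3 control IgG samples, grouped by their treatment label. The tools named are bedtools, DESeq2, DiffBind 2.0.7, MACS2 2.1.0.20150420 and BWA 0.7.9a, with build mm10, per the submitters' processing notes, which give no role or order here. Cut-site shifting and the treatment of duplicates are not given in the sources used here. Per the file headers, the deposited signal is the pileup at the summit. The deposited fold enrichment is a ratio over the local background. Headers of the deposited −log10 p-value and −log10 q-value columns were damaged, and these were told apart by their values. The file does not state which libraries formed either side, and merging of each group was assumed. Depth per sample is unknown.

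Fragments were recovered from the pileup (tolerance 0.005) and the control background from the fold, given a caller's pseudocount of 1. Where the background came from a window wider than the site, the control count there was taken as the most it allows. Gene positions, tRNA genes and promoter windows are from RefSeq GRCm38.p6; of 301 list genes 2 did not match. Python 3.11.15, numpy 2.4.6, pandas 2.3.3 and scipy 1.17.1 were used, and the code was tested on simulated data. No model across samples was fitted, since no column carries a sample. Alternatives were a q of 0.01, a pileup of 20, summits outside every RefSeq gene, the exact test, and other windows, centres and gene sets.

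The members and lists were chosen with earlier results of these data known. Peaks named were drawn from the 10 of smallest q, the 5 longest, the 5 of highest pileup and the 5 farthest from genes. They also came from the 3 largest clusters and from members within 100 kb of Il21 or Ifng. A last set was up to 25 of smallest q whose nearest gene is on a T cell list. Not every peak of these sets is described. Further peaks near list genes, the tRNA group and the B box motif were chosen after their values were seen. Coordinates are as the file gives them. Intervals cover counting error only, and PCR copies are not independent molecules.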

Additional observations from a re-analysis of the deposited data

How the results depend on the processing

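The intergenic share was 10.1% at a q of at most 0.01, 3.51% at a pileup of at least 20, 8.01% for summits outside every RefSeq gene and 5.77% among peaks kept by the exact test. In the order q, pileup and exact test, the median fold was 5.14, 5.20 and 7.07, the median pileup 9.61, 23.75 and 16.11, and the median length 517.5, 844.5 and 772 bp. The median distance to a start was 9.54 kb at a pileup of 20, 12.2 kb in the exact test and 7.10 kb to any RefSeq gene. Members with another within 50 kb numbered 0 at a pileup of 20, 4 in the exact test and 115 outside RefSeq genes, and 97 had one within 10 kb. Members near a T cell list gene numbered 1, 7 and, by nearest gene only, 37. The stricter rule kept 77 members by the exact test, 530 at a q of 0.01 and 391 at 0.001. It kept 154 with unknown control counts taken as 0, an alternative chosen after seeing the data. The filter on pileup keeps better covered peaks by construction, and every filter lowers counts by keeping fewer peaks; for the other values the cause was not tested. No paired analysis was possible because no column carries a replicate number, and for the same reason no replicate could be left out. The folds rest on few control fragments, with a background below 1 fragment for 54.1% of the members. The part of control depth in this was not tested.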
